A study of Mus musculus with 7 samples.

Results

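The 10 genes described here are the insulin-like growth factor (IGF) genes Igf1 and Igf2, their receptors Igf1r and Igf2r, and the binding protein genes Igfbp2, Igfbp3, Igfbp4, Igfbp5, Igfbp6 and Igfbp7. They were taken by gene symbol from the platform annotation, and all 10 were found among 12393 measured genes, with 23 of 20380 probe sets that carry 1 symbol. Where a gene had several probe sets, the one with the highest mean signal over the 7 arrays is its main value, and every other one is given too.

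The arrays measured total RNA of bone marrow stromal cells sorted by flow cytometry from OsxCre-mCherry;OcnCre-Topaz double transgenic mice, aged 4 to 6 weeks, 6 days after tamoxifen. One group, Ocn+ (Topaz, driven through the osteocalcin promoter, a promoter of mature osteoblasts), has 3 arrays. The other, Osx+ (mCherry, driven through the osterix promoter, active in cells committed to bone formation), has 4. Both groups carry both transgenes and received tamoxifen, and there is no untreated group. Double-positive cells were not analysed here. The labels do not say whether each array came from a separate animal, so every p-value rests on the spread between these arrays, and part of that spread may be technical.

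IGF1 and IGF2 are small secreted hormones that bind the type 1 receptor, a tyrosine kinase that drives growth and survival through the PI3K and MAP kinase pathways. The type 2 receptor has no kinase; it takes up IGF2 for breakdown in lysosomes. Binding proteins hold the ligands outside the cell, and proteases set them free. In bone, osteoblasts make both ligands and store them in the matrix, in part through IGFBP5.

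Between the sorted populations the ligand and receptor genes differed by -0.16 to 0.09 log2 units in their main probe sets, and the largest differences were in binding proteins. Igfbp3 was 2.36-fold brighter in Ocn+ than in Osx+ cells, Igfbp7 1.51-fold, Igfbp2 1.34-fold and Igfbp4 1.27-fold, with a 95% interval that includes no difference for each. In limma 0 of the 10 genes passed at an adjusted p under 0.05 over all genes, where the background is 0% of 12393 genes. At an unadjusted p under 0.05, 0 of the 10 genes and 5.31% of all genes were counted. The Ocn+ and Osx+ arrays overlapped for all 10 genes, while they did not overlap for 6.90% of all genes. The difference was above 0 for 7 of the 10 genes, against 52.7% of all genes, and its median was 0.11 log2 units against 0.02 over all genes.

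A second division of the arrays is needed to read these values. Xist, the RNA of the inactive X chromosome, had log2 signals of 12.33 to 12.96 in 4 arrays (Ocn+ replicates 2 and 3, Osx+ replicates 2 and 4) and of 4.87 to 5.79 in 3 (Ocn+ replicate 1, Osx+ replicates 1 and 3). The labels give no sex. These high-Xist and low-Xist arrays did not overlap for 34.3% of all genes. The control probe sets of Gapdh, a sign of how evenly a transcript was copied, also separated them. The signal at the 3' end exceeded that at the 5' end by 0.89 to 1.26 log2 units in the low-Xist and by 0.59 to 0.64 in the high-Xist arrays. For pyruvate carboxylase the same excess was 2.22 to 2.80 and 1.22 to 1.30, while for beta-actin and the transferrin receptor the classes overlapped. The beta-actin excess did not overlap between the reporter groups, at 0.463 to 0.475 in Ocn+ and 0.480 to 0.768 in Osx+ arrays. For the other controls the reporter groups overlapped. What part the class or the control excess has in any IGF value was not tested.

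Markers of bone-forming cells gave signal in both groups. The means of the 9 measured osteoblast markers were 12.7 to 13.2 in Ocn+ and 11.8 to 13.1 in Osx+ arrays. The dimmest of them, Mepe, had log2 signals of 5.52 to 11.44. Over the 9 markers the differences, Ocn+ minus Osx+, ran from -0.13 to 2.61, with 6 above 0 and 3 below, and limma called 0. Col1a1, the main collagen of bone, had log2 signals of 14.91 to 15.05, Alpl, the alkaline phosphatase of mineralizing cells, of 13.63 to 13.88, and Sp7, the gene of osterix, of 12.15 to 12.93. Sp7 was not higher in Osx+ arrays, with a difference, Ocn+ minus Osx+, of 0.18 (SE 0.25). Osteocalcin genes were not analysed here. In both groups markers of blood and vessel cells also gave signal, and for some of them the groups lay apart. The means of the 12 endothelial markers were 9.73 to 10.28 in Ocn+ and 6.01 to 9.21 in Osx+ arrays, those of the 10 neutrophil markers 10.87 to 11.07 and 7.24 to 10.53, and those of the 6 measured osteoclast markers 11.15 to 11.69 and 8.37 to 10.76. The means of the 10 macrophage markers were 9.85 to 11.15 and 11.13 to 12.41, and those of the 9 cartilage markers 9.87 to 11.45 and 10.79 to 13.05. In sorted bulk RNA, fewer cells of a type and less RNA per cell cannot be told apart.

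**Figure D1:**
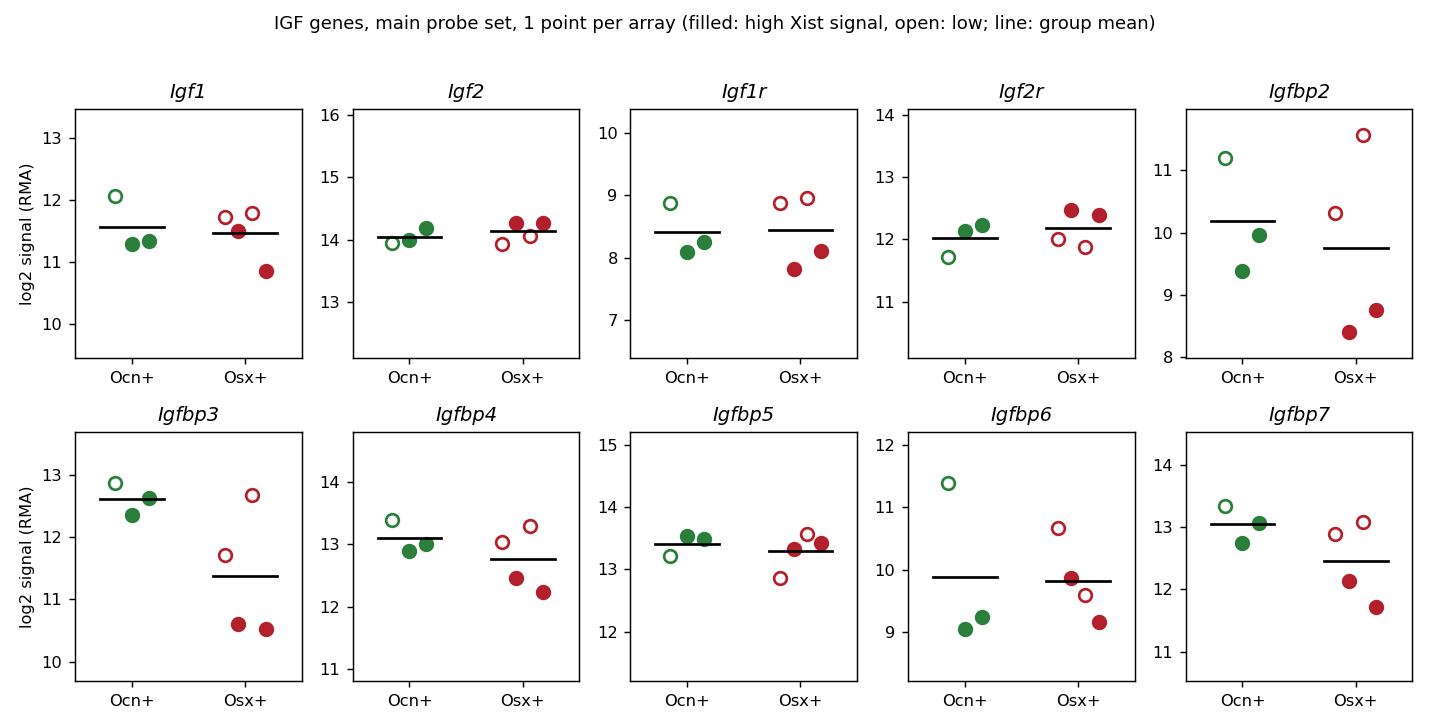
Log2 RMA signal (vertical axes, each spanning 4 log2 units) of the main probe set of each of the 10 IGF genes in 3 Ocn+ (green) and 4 Osx+ (red) arrays; filled points are high-Xist and open points low-Xist arrays, and the line is the group mean. The groups overlap in every panel, and in Igf1, Igf1r, Igfbp2 and Igfbp4 the open points lie above all filled ones, while in Igf2r they lie below.

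The sequences before the start sites of Igfbp3, Igfbp7 and Igfbp4 are shown. Within Osx+ these genes were lowest in replicates 2 and 4, the high-Xist ones. That order is not particular to them, since Igf1, Igf1r and Igfbp2 were lowest in the same arrays. The sequences are the 250 bases before the RefSeq start site (GRCm38.p6), written in the direction of transcription. Capitals mark matches to short motifs, each searched on both strands, whose matches can overlap. One is the TATA element, searched as TATANA. Another is the GC box, whose letters are GGGCGG. The last is the core bound by Runx factors, with the letters TGTGGT.
Igfbp3, chr11:7213924-7214173, minus strand: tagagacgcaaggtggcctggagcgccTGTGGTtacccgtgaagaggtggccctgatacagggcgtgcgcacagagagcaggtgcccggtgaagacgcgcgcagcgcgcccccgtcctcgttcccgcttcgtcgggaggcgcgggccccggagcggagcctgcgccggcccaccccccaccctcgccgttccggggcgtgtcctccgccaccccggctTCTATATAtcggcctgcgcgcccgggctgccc
Igfbp4, chr11:99040994-99041243, plus strand: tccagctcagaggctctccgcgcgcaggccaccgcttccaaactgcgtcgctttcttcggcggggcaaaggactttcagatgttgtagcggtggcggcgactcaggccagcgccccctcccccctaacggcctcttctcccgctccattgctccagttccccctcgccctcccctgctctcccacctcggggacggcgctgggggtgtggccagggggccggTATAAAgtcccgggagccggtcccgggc
Igfbp7, chr5:77408046-77408295, minus strand: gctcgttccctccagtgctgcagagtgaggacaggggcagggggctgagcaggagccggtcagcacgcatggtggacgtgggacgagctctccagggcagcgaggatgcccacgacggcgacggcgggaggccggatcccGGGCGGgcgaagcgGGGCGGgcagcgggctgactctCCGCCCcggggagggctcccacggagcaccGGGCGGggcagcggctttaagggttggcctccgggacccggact

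Igfbp3 and Igfbp4 each have a TATA element that begins 30 and 28 bases before the start site. Igfbp3 also has 1 Runx core, at 223 bases before it. Igfbp7 has no TATA element in this window and holds 4 GC boxes, which Igfbp3 and Igfbp4 lack. Of 32851 RefSeq windows of this length, 22.6% hold the TATA element, 32.7% the GC box and 14.0% the Runx core. The 3 windows are rich in G and C, at 73.2% for Igfbp3, 69.2% for Igfbp4 and 74.0% for Igfbp7, against a median of 52.4% over all windows. A match describes the letters only.

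Igfbp3, the main carrier of IGFs in blood and a local inhibitor in tissue, had the largest difference of the 10 genes. Its log2 signals were 12.86, 12.35 and 12.63 in Ocn+ replicates 1 to 3. In Osx+ replicates 1 to 4 they were 11.71, 10.60, 12.68 and 10.52. The 3 Ocn+ arrays lay close together, Osx+ replicate 3 was among them, and the other Osx+ arrays were lower. Group means were 12.61 ± 0.26 (SD, n = 3) and 11.38 ± 1.02 (SD, n = 4). The difference was 1.24 log2 units (SE 0.53, 95% interval -0.02 to 2.49), with a limma adjusted p of 0.951 and a 2-sided exact permutation p of 0.171, where 3 against 4 arrays cannot give less than 0.0571. Within the high-Xist arrays the difference was 1.93 and within the low-Xist arrays, with 1 Ocn+ array, 0.67. In both classes each Ocn+ array was brighter than each Osx+ array. Igfbp3 has 1 probe set here. It lies next to Igfbp1 on chromosome 11, and Igfbp1 had dim signals of 4.57 to 5.48 with a difference of 0.09 (SE 0.30).

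Igfbp7, a secreted protein of low affinity for IGFs that is found in vessel basement membranes, had a smaller difference, again with Osx+ replicates 2 and 4 lowest. Ocn+ replicates 1 to 3 had log2 signals of 13.34, 12.75 and 13.07. The Osx+ arrays stood at 12.88, 12.14, 13.08 and 11.72. Osx+ replicates 1 and 3 lay within the Ocn+ range, unlike replicate 1 for Igfbp3. The difference was 0.60 (SE 0.36, 95% interval -0.25 to 1.45; limma adjusted p = 0.999). Its other probe sets gave 0.68 (SE 0.40) for 1437804_at and 0.84 (SE 0.40) for 1423585_at, so all 3 ran the same way.

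Igfbp4, a binding protein that blocks IGF action until the protease PAPP-A cuts it, is read by 6 probe sets. The main one, 1423756_s_at, had log2 signals of 13.39, 12.89 and 13.01 in Ocn+ arrays. In Osx+ arrays it had 13.04, 12.46, 13.30 and 12.23, again with replicates 2 and 4 lowest. The difference was 0.34 (SE 0.30, 95% interval -0.36 to 1.04; limma adjusted p = 0.999). Over its other probe sets the difference ran from 0.19 (1437405_a_at) through 0.28 (1437406_x_at), 0.38 (1423757_x_at) and 0.51 (1421992_a_at) to 0.82 (1421991_a_at). All 6 were above 0, and the largest came from the dimmest set, with group means of 9.58 and 8.75. Without Osx+ replicate 4 the difference of 1437405_a_at was -0.03.

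Taking the Xist class into the model narrowed the errors of these 3 genes. With the class as a term, the differences were 1.42 (SE 0.35) for Igfbp3, 0.73 (SE 0.20) for Igfbp7 and 0.45 (SE 0.15) for Igfbp4. Their limma adjusted p were 0.161, 0.191 and 0.241, so 0 of the 10 genes passed, and the background was again 0% of all genes. Unadjusted, 3 of the 10 genes had a p under 0.05 in this limma fit, against 16.0% of all genes. The Ocn+ arrays lay above all Osx+ arrays within both classes for these 3 genes, against 16.3% of all genes, and below them for Igf2r, against 10.7%. In either direction that makes 4 of 10 genes, against 27.0% of all. A limma fit with array weights called 0 of the 10 genes and 0.783% of all genes. Its weights ran from 0.236 (Osx+ replicate 1) to 6.02 (Ocn+ replicate 2), and the low-Xist arrays had the lowest. A class-by-group interaction rests on 1 low-Xist Ocn+ array, so whether a difference depends on the class cannot be told. Within the high-Xist and low-Xist arrays Igfbp3 differed by 1.93 and 0.67, and Igfbp6 by -0.37 and 1.26. The confidence intervals with and without the class term are plotted together.

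**Figure D2:**
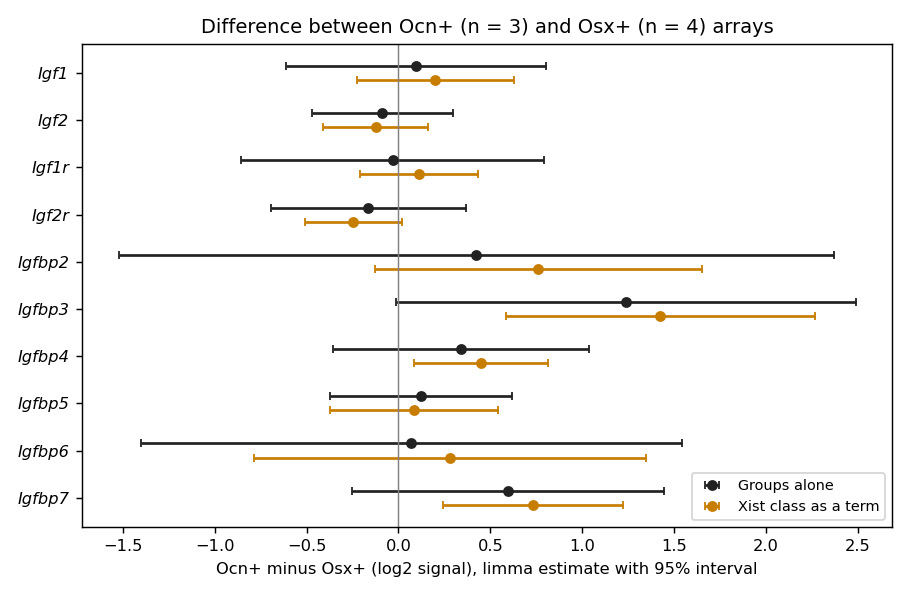
Difference in log2 signal, Ocn+ minus Osx+ (horizontal axis), of the 10 IGF genes, as limma estimates with 95% intervals; black is the fit on groups alone and orange the fit with the Xist class as a term. All black intervals include 0, and the orange intervals of Igfbp3, Igfbp4 and Igfbp7 lie above 0 before adjustment over all genes.

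The mean signals of endothelial and of osteoclast markers were also lowest in Osx+ replicates 2 and 4 and, within Osx+, highest in replicate 3. All 12 measured endothelial markers had a difference above 0, with a median of 2.66 log2 units, and 0 of 12 passed over all genes in limma, where 11 of 12 had an unadjusted p under 0.05, against 5.31% of all genes. With array weights limma called 10 of the 12, against 0.783% of all genes. That fit gave Ocn+ replicate 2 a weight of 6.02 and Osx+ replicate 3 a weight of 0.353, so the arrays count unequally in it. The endothelial mean was 9.73, 9.91 and 10.28 in Ocn+ arrays and 7.71, 6.01, 9.21 and 6.80 in Osx+ arrays. Osx+ replicate 3, the Osx+ array with the highest Igfbp3, Igfbp4 and Igfbp7, also had the highest endothelial mean, and replicates 2 and 4 had the lowest of both. The mean of the 6 osteoclast markers was 11.32, 11.15 and 11.69 in Ocn+ arrays and 9.56, 9.19, 10.76 and 8.37 in Osx+ arrays, the order of Osx+ arrays that Igfbp3, Igfbp4 and Igfbp7 also have. All 6 had a difference above 0, with a median of 1.56, and limma called 0 of them, or 3 with array weights, while 5 had an unadjusted p under 0.05. The sum of the 12 linear endothelial signals was 11604 to 16435 in Ocn+ and 904 to 8842 in Osx+ arrays. Even the dimmest of these markers, Flt1, had log2 signals of 5.95 to 8.52, and whether these lie above background is not known. Genes with Riken, Gm, LOC or clone names were left out of a search for like genes. Among the others the 3 most like Igfbp3 over the 7 arrays were Notch4, Egfl7 and Sox17 (Pearson r 0.990, 0.990 and 0.989), all known from endothelium. Those most like Igfbp7 were Atp6v1e1, Hexa and Cox7a1 (r 0.994, 0.991 and 0.990), and those most like Igfbp4 were Hexa, Col18a1 and Znfx1 (r 0.994, 0.992 and 0.991). These coefficients were picked as the highest of all genes so searched, over 7 arrays that share the Xist division, and are a description. The part of endothelial or osteoclast RNA in the binding protein values was not tested.

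**Figure D3:**
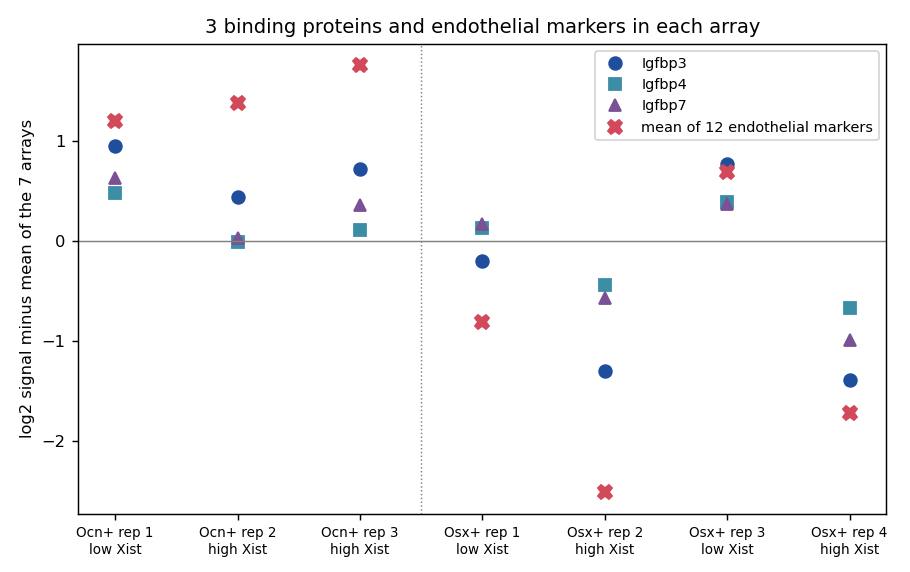
Log2 signal minus the mean of the 7 arrays (vertical axis) for Igfbp3, Igfbp4, Igfbp7 and the mean of 12 endothelial markers in each array (horizontal axis, Ocn+ left of the dotted line). Osx+ replicates 2 and 4 are lowest for all 4 quantities, and Osx+ replicate 3 lies with the Ocn+ arrays for the binding proteins.

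Igfbp2, which in bone can act with IGF2 on osteoblasts, had the largest spread among the Osx+ arrays of the 10 main probe sets. It had log2 signals of 11.21, 9.38 and 9.96 in Ocn+ arrays. Those of the Osx+ arrays were 10.32, 8.40, 11.57 and 8.75. Every low-Xist array lay above every high-Xist array, in both groups, with a gap of 1.91 between class means. The difference between groups was 0.42 (SE 0.83, 95% interval -1.52 to 2.37; limma adjusted p = 0.999), which spans a lower signal by a factor of 0.348 and a higher one by 5.16. Within the high-Xist arrays it was 1.10 and within the low-Xist arrays 0.26.

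Igfbp5, the binding protein that attaches IGFs to bone mineral and matrix, was bright in both groups. The main probe set, 1452114_s_at, had log2 signals of 13.22, 13.53 and 13.49 in Ocn+ arrays. In Osx+ arrays it gave 12.85, 13.32, 13.56 and 13.41, a difference of 0.12 (SE 0.21, 95% interval -0.37 to 0.62; limma adjusted p = 0.999). The second set, 1422313_a_at, gave 12.39, 13.24 and 13.39 against 11.09, 13.01, 11.96 and 13.04, a difference of 0.73 (SE 0.53). Its low values were those of the low-Xist arrays. Igfbp2 and Igfbp5 are neighbours on chromosome 1, and over the Xist classes their main probe sets ran in opposite directions, 1.91 and -0.23.

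Igfbp6, which prefers IGF2 over IGF1, had its highest and its lowest signal in Ocn+ arrays. Ocn+ replicate 1 had a log2 signal of 11.38, and replicates 2 and 3 had 9.04 and 9.23. The Osx+ arrays lay between, at 10.67, 9.86, 9.58 and 9.16. The difference was 0.07 (SE 0.62, 95% interval -1.40 to 1.54; limma adjusted p = 0.999), and leaving out 1 array gave -0.68 (without Ocn+ replicate 1) to 0.49 (without Ocn+ replicate 2), with the sign turned in 3 of the 7 cases. Within the low-Xist arrays it was 1.26 and within the high-Xist arrays -0.37.

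Among the ligands, Igf2 was bright and steady in its main probe set but not in its second. The main one, 1448152_at, had log2 signals of 13.95, 14.00 and 14.19 in Ocn+ arrays. In Osx+ arrays they were 13.93, 14.28, 14.07 and 14.27. The difference was -0.09 (SE 0.16), and its 95% interval, -0.47 to 0.30, spans a factor of 0.722 to 1.23. The second probe set, 1415931_at, gave 8.75, 10.67 and 11.45 against 9.50, 11.37, 9.69 and 11.57, with the 3 low-Xist arrays lowest. Its difference between groups was -0.24 (SE 0.79), and it was 0.53 without Ocn+ replicate 1.

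Igf1 had 3 probe sets that ran differently over the arrays. The main one, 1452014_a_at, gave log2 signals of 12.06, 11.30 and 11.34 in Ocn+ arrays. Osx+ arrays had 11.73, 11.50, 11.79 and 10.86. Its difference was 0.09 (SE 0.30, 95% interval -0.61 to 0.80; limma adjusted p = 0.999). The set 1419519_at gave 8.99, 9.09 and 9.18 against 7.90, 9.81, 8.34 and 8.78, a difference of 0.38 (SE 0.43). The set 1437401_at gave 7.55, 8.73 and 9.08 against 6.21, 10.08, 8.69 and 9.41, a difference of -0.14 (SE 0.91). In the low-Xist arrays the main set was higher by 0.61 in the mean and 1437401_at lower by 1.84, with no overlap of the classes for either. Which value stands for the whole Igf1 message was not tested.

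The receptors showed small differences. Igf1r, the signalling receptor, had log2 signals of 8.88, 8.09 and 8.25 in Ocn+ arrays. Those in Osx+ arrays were 8.88, 7.83, 8.95 and 8.10. The 3 low-Xist arrays lay within 8.88 to 8.95 whichever group they belonged to, and the 4 others within 7.83 to 8.25. The difference between groups was -0.03 (SE 0.35, 95% interval -0.86 to 0.79; limma adjusted p = 0.999), and 0.11 (SE 0.13) with the class as a term. The dimmer set 1452108_at differed by 0.06 (SE 0.17).

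Igf2r, the receptor that clears IGF2 and also carries lysosomal enzymes, was lower in Ocn+ arrays within each class. It had log2 signals of 11.71, 12.13 and 12.23 in Ocn+ arrays. In Osx+ arrays they were 12.00, 12.48, 11.87 and 12.39. The difference was -0.16 (SE 0.22, 95% interval -0.69 to 0.37; limma adjusted p = 0.999). With the class as a term it was -0.24 (SE 0.11; limma adjusted p = 0.342). The second set, 1424112_at, differed by -0.05 (SE 0.33) and did not keep the order of the groups within either class.

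Over the 23 probe sets the arrays divided more often by Xist class than by reporter, as they did over all probe sets. For 13 of 23 the classes did not overlap, against 34.7% of all probe sets, and for 0 of 23 the reporter groups did not overlap, against 6.62%. Probe sets of 1 gene share their target and are not independent. Of the 13, 8 were higher and 5 lower in the low-Xist arrays. Among main probe sets the classes did not overlap for 5 of 10 genes, against 34.3% of all genes. Igf1, Igf1r, Igfbp2 and Igfbp4 were higher and Igf2r was lower in the low-Xist arrays, against 21.4% and 12.9% of all genes. Without Osx+ replicate 3 the classes did not overlap for 8 of 10, against 49.2% of all genes in that smaller split. Of the 7 genes with over 1 probe set, Igf1 and Igf1r had sets of both signs between the classes. These class differences carry no test, since the classes were defined from the arrays themselves.

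**Figure D4:**
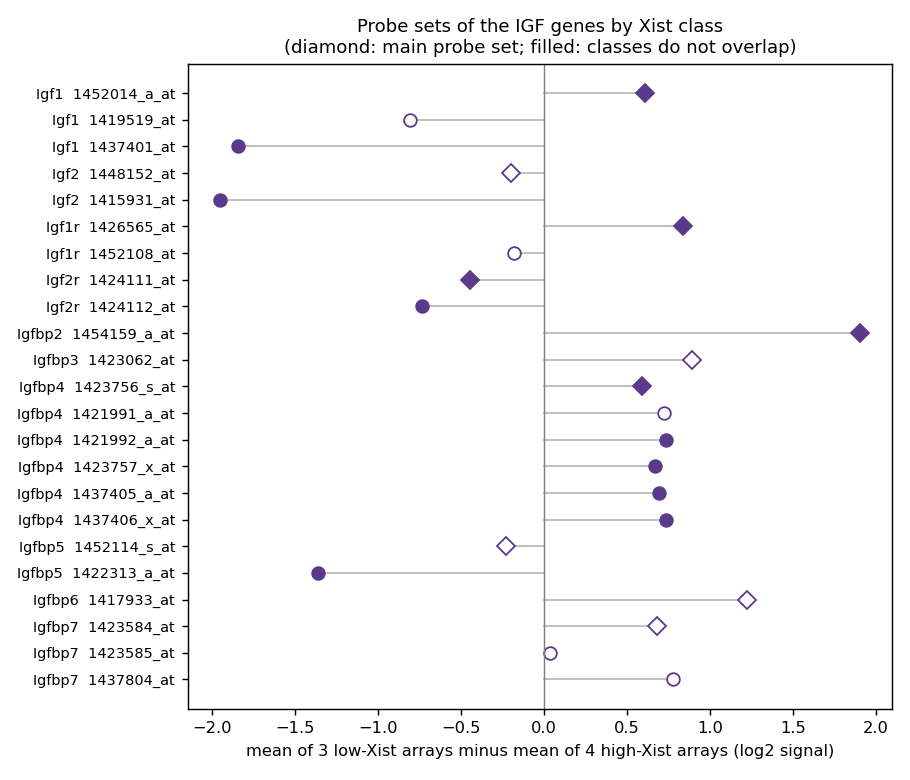
Mean log2 signal of the 3 low-Xist arrays minus that of the 4 high-Xist arrays (horizontal axis) for the 23 probe sets of the 10 IGF genes; diamonds are main probe sets and filled symbols mark sets whose classes do not overlap. The 6 Igfbp4 sets lie together between 0.59 and 0.74, while the 3 Igf1 sets run from -1.84 to 0.61.

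Other genes of the pathway were read from lists by role. Of the 7 measured proteases of binding proteins and their inhibitors, limma called 0 over all genes, with 2 at an unadjusted p under 0.05 (5.31% of all genes), and 4 were above 0 and 3 below. Stc2 and Stc1, the stanniocalcins, block the protease that cuts IGFBP4, and they pointed in opposite directions. Stc2 had log2 signals of 8.53, 8.69 and 7.80 in Ocn+ arrays and 10.48, 9.30, 9.42 and 9.17 in Osx+ arrays, with no overlap (as for 6.90% of all genes), a difference of -1.26 (SE 0.38) and a limma adjusted p of 0.789. Stc1 differed by 1.37 (SE 0.54; limma adjusted p = 0.935) with overlap, and by 0.73 as the mean of its probe sets. Pappa, the gene of PAPP-A, was dim and differed by 0.25 (SE 0.37), and the serine protease Htra1 differed by -0.15 (SE 0.15).

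Of 8 genes of growth hormone signalling, which drives Igf1 in liver and bone, limma called 0, with 1 at an unadjusted p under 0.05 (5.31% of all genes), and 6 were above 0 and 2 below. Stat5b, the transcription factor activated by the growth hormone receptor, had log2 signals of 10.39, 10.36 and 10.31 in Ocn+ arrays. Its Osx+ values were 9.80, 9.91, 9.69 and 9.72. In this probe set the groups did not overlap, as for 6.90% of all genes, at 10.35 ± 0.04 (SD, n = 3) and 9.78 ± 0.10 (SD, n = 4). The difference was 0.57 (SE 0.14; limma adjusted p = 0.689), and it was 0.52 and 0.64 within the high-Xist and low-Xist arrays. It fell to 0.39 with the mean of all Stat5b probe sets and to 0.21 with the set of largest variance. Cish, a feedback inhibitor of the same pathway, differed by 0.61 (SE 0.27; limma adjusted p = 0.957), Stat5a by 0.30 (SE 0.17) and the receptor gene Ghr by -0.15 (SE 0.74).

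Of 25 measured genes of signalling below the type 1 receptor, limma called 0, with 1 at an unadjusted p under 0.05 (5.31% of all genes). Their differences were above 0 for 16 and below for 9, with a median of 0.11. Shc1, an adaptor that links the receptor to the MAP kinase pathway, had log2 signals of 11.56, 11.58 and 11.62 in Ocn+ arrays. Osx+ arrays stood at 10.81, 11.04, 10.51 and 11.19, all lower, a separation seen for 6.90% of all genes. The difference was 0.70 (SE 0.20; limma adjusted p = 0.731), but 0.45 with the mean of all Shc1 probe sets and 0.20 with the set of largest variance. Akt2, a kinase of the PI3K branch, differed by 0.29 (SE 0.17) and Rictor, a part of the mTOR complex that acts on AKT, by -0.23 (SE 0.16), both with overlap. Rictor was dim, with log2 signals of 3.94 to 4.41. The main substrate genes of the receptor, Irs1 and Irs2, differed by -0.27 (SE 0.35) and 0.22 (SE 0.29).

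The remaining family genes and the genes acting on Igf2 RNA or the imprinted loci also had 0 called in limma, and 0 with an unadjusted p under 0.05. Of 6 measured family genes 2 were above 0 and 4 below. Insr, the insulin receptor, differed by 0.49 (SE 0.37), Igfbpl1 by -0.43 (SE 0.30) and Insrr by -0.27 (SE 0.15). Insrr alone of the 6 had no overlap, against 6.90% of all genes. All 3 were dim, with log2 signals of 4.94 to 6.47, 5.04 to 6.20 and 5.20 to 5.64. Of 6 measured genes of the second list 3 were above 0 and 3 below. Hmga2, a chromatin protein that raises Igf2bp2, differed by -0.88 (SE 0.51), the zinc finger gene Plagl1 by -0.19 (SE 0.26) and the RNA-binding protein gene Igf2bp3 by -0.32 (SE 0.49). With the probe set of largest variance Igfbpl1 differed by -0.089, Plagl1 by -0.047 and Hmga2 by -1.38.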

How the data were processed

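Each array gave 1 value per probe set for RNA of Ocn+ or Osx+ cells that, per the labels' protocols, was extracted with Trizol and amplified by NuGEN's Ovation V2 process. The deposited values are log2 signals. The authors' tool was RMA, according to the submitters' processing notes, and its version is not given in the sources used here. RMA equalizes array distributions, so total RNA per cell cannot be read. No detection calls were used, so a dim signal may lie at background. An array has no read depth, and 3 against 4 arrays limit the precision; array medians were 8.25 to 8.35.

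Of 22690 probe sets, 64 controls, 691 with several symbols and 1555 with no symbol listed were left out of the fit. Symbols of 20351 of the 20380 others were updated by Entrez identifier. One value per gene (the probe set of highest mean) entered limma 3.58.1 in R 4.3.3 (lmFit and eBayes, no block). Tests were 2-sided, and p-values were adjusted by Benjamini-Hochberg over 12393 genes. The fit was tested on simulated data of independent normal values without a Xist division. That test does not show how often differences of the size seen here would be called in these arrays. Exact permutation tests used the 35 divisions of 7 arrays into 3 and 4. A fold is the brighter over the dimmer mean of log2 values on the linear scale.

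The genes, lists, design and alternatives were chosen with earlier results of these data known. All 10 IGF genes are named with every probe set. From each pathway list the 3 of smallest p are named, since 0 passed; Igfbp1, Pappa, Ghr, Irs1 and Irs2 were added after their values were seen. The 3 genes of highest Pearson correlation, without those of Riken, Gm, LOC or clone names, are named for the 3 IGF genes of smallest p. The Xist class is a log2 signal under or over 8. B lymphoid, erythroid, mural and stromal marker lists were read too: 0 of 7, 5 and 9 measured genes passed, and the median differences were -0.20, -0.30 and -0.07. The 9 measured osteoblast markers had a median of 0.12. Promoter sequences are RefSeq's. Alternatives were a block for the replicate number, the omission of single arrays, a filter on dim genes, 2 scalings, array weights, other probe set rules, another prior and the Xist class.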

Additional observations from a re-analysis of the deposited data

Results flagged for a closer look

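In 53 groups of 4 Osx+ values looked at (IGF probe sets, named pathway genes and list means), 1 stood apart from the other 3 by the gap test at its 95% critical value, which chance meets in about 1 of 20 groups. The mean of the 7 measured B lymphoid markers was 7.78 in Osx+ replicate 1, and 6.37 to 6.59 in the other 3. Its relation to the IGF genes was not tested.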

How the results depend on the processing

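With equal weights limma called 0 genes. It called 97 with array weights, 19 within the high-Xist arrays and 0 to 3 when 1 array was left out. The 3 were Ctsg, Elane and Prtn3 without Osx+ replicate 2 and Ckmt1, Oscar and Tspan15 without Osx+ replicate 3, named after their values were seen. None of the settings called an IGF gene. Whether the replicate numbers pair the arrays is not known. Same-numbered arrays deviated together for numbers 1 and 2 (r 0.626 and 0.447) and not for 3 (-0.304). These values cannot decide it, since numbers 1 and 2 share a Xist class between the groups and number 3 does not. The replicate block called 0 genes. Osx+ replicate 4 has no Ocn+ array of its number, so the block leaves it out of each difference. The block's differences are therefore those without Osx+ replicate 4, and not a separate alternative. With the replicate block the difference was -0.11 for Igf1, -0.15 for Igfbp6, 0.13 for Igf1 set 1437401_at, 0.10 for Igf2 set 1415931_at, 0.11 for Igf2r set 1424112_at and -0.033 for Igfbp4 set 1437405_a_at. With array weights it was 0.015 for Igf1r, -0.27 for Igfbp6 and -0.022 for Igf1r set 1452108_at. It was 0.013 for Igf1r with the mean of all probe sets and -0.14 for Igf1 with the probe set of largest variance. It was 0.11 for Igf1r with the Xist class as a term. Within the high-Xist arrays it was 0.21 for Igf1r, -0.37 for Igfbp6 and 0.075 for Igfbpl1. Leaving out 1 array gave -0.15 to 0.23 for Igf1, -0.27 to 0.14 for Igf1r, -0.088 to 1.03 for Igfbp2, -0.023 to 0.22 for Igfbp5, -0.68 to 0.49 for Igfbp6, -0.32 to 0.015 for Plagl1 and -0.68 to 0.091 for Igf2bp3. For the sets 1437401_at, 1415931_at, 1424112_at and 1437405_a_at it gave -0.94 to 0.35, -0.82 to 0.53, -0.26 to 0.18 and -0.033 to 0.42. Igfbp3 stayed between 0.95 and 1.67, Igfbp7 between 0.35 and 0.81 and Igfbp4 between 0.16 and 0.52. The number of IGF genes whose Xist classes do not overlap was 5 to 8, an alternative chosen after seeing the data. Beyond the array left out by the replicate block, the cause of these changes was not tested.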
